A study of Mus musculus with 14 samples.

Results

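In these mouse tumours 79 protein-coding genes were present in the vehicle libraries of one strain label, most of them at a low and even level, and close to absent from those of the other. They were chosen by level from all 51789 genes of the deposited count table, 21780 of them protein-coding. Levels are given as CPM, the count scaled to a common library total. A gene was taken when its mean was 3 CPM or more in the 4 libraries labelled C57BI6 vehicle and 0.3 CPM or less in the 3 labelled NGS vehicle. Both limits were met by 323 genes of any type, of which 84 were protein-coding. Of these, 5 were left out because of the start of their symbol (Gzmc, Gzmf, Klrc1, Igsf11 and Ifi213). The vehicle libraries therefore fixed the strain difference, which is described for them without a test. The ACSS2i libraries had no part in the choice.

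Only 2 of the 79 genes stood on the lists of immune-cell markers, Nkg7 and Tgtp1. The other 77 comprised 25 olfactory receptor genes, 19 predicted genes or clones (symbols starting with Gm or ending in Rik), 8 genes of the nervous system, 6 of steroid and drug metabolism, 3 of placenta and germ line, and 16 other named genes. These last classes were assigned after the genes were known. The predicted genes and clones were classed by symbol alone, so an immune-cell gene among them would not have been separated. The 79 genes lay on 21 chromosomes, with 10 each on chromosomes 2 and 7 and 8 on chromosome 9. A reverse choice with the same limits, nearly absent from C57BI6 vehicle, gave 113 protein-coding genes.

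The study sequenced polyadenylated RNA of bulk mouse tumours in 14 libraries, prepared with a QuantSeq kit, which reads the 3′ ends of transcripts. It compared vehicle with ACSS2i, an inhibitor of the enzyme ACSS2, which makes acetyl-CoA from acetate, in mice whose strain was written as NGS mouse or C57BI/6 mouse. The 4 groups were NGS vehicle and NGS ACSS2i with 3 libraries each, and C57BI6 vehicle and C57BI6 ACSS2i with 4 each. The labels give no age, sex, tumour line, dose or duration, no meaning for NGS, and no Bmal1 status for any library, although the design line mentions Bmal1. They do not say whether the libraries of a group came from separate animals, so p-values measure the spread between these samples, which may be technical.

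Olfactory receptors are G protein-coupled receptors that sense odours; each neuron of the nasal epithelium uses one of a very large gene family, and other tissues make little of their RNA. Many of the other genes belong to tissues that a tumour does not usually hold, such as brain, placenta, liver and the steroid-producing glands. The ends of mammalian genes often contain copies of transposable elements, among them LINE-1 elements and the short B1 and B2 elements of rodents, so the same stretch of bases can occur in the transcripts of many genes.

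A feature that the choice by level did not use was sequence shared with other genes. The 14-letter sequences below were chosen after the members were known, as the 5 most over-represented in them, taken in turn, so their frequency in the members is a description. The first was CCAGTACAGGGGAA, part of the 3′ end of LINE-1 elements as background knowledge has it; no repeat annotation was used. It was read on the transcribed strand in 14 of the 79 genes, namely 11 olfactory receptor genes, Hsd3b2, Nkain3 and Dpp10. In all 14 it lay in an exon of the 3′ untranslated region, and in 10 it ended within 500 bases of the transcript's end. Just before the searched letters, the bases of Dpp10, Olfr653, Olfr914 and Olfr1167, not shown, differ from those of the windows below. These 7 windows of 30 bases from the GENCODE M21 transcripts (build mm10) are examples with the same bases there. The searched letters are in capitals.
Hsd3b2 (chr3:98709371-98709400, minus strand): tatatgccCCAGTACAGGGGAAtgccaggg
Nkain3 (chr4:20243961-20243990, minus strand): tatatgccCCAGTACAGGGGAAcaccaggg
Olfr552 (chr7:102608065-102608094, plus strand): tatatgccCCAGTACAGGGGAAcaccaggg
Olfr635 (chr7:103987511-103987540, plus strand): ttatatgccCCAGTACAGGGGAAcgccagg
Olfr1028 (chr2:85953872-85953901, plus strand): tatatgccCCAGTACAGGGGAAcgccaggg
Olfr1322 (chrX:49883071-49883100, minus strand): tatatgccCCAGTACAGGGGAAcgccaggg
Olfr90 (chr17:37083881-37083910, minus strand): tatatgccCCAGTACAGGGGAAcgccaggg

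A second group shared GGCAGCCACATTCA, in 6 genes, of which 5 are shown because they include the predicted genes with the highest counts of the set. Among the 5 shown, the stretch was in a coding exon of the 4 predicted genes and in the 3′ untranslated region of Olfr1336. It ended within 500 bases of the transcript's end in 0 of the 6 genes.
Gm21897 (chr16:15317887-15317916, plus strand): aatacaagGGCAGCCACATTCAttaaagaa
Olfr1336 (chr7:6464149-6464178, plus strand): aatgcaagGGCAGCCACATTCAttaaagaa
Gm21750 (chr14:73661654-73661683, plus strand): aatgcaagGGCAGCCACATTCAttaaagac
Gm21962 (chr3:137671554-137671583, plus strand): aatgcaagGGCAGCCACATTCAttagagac
Gm17555 (chr2:126215472-126215501, plus strand): aattcaagGGCAGCCACATTCAttccagac

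The other 3 shared sequences belong, as background, to the B1 element (TGAGTTCCAGGACA, in 13 genes), the B2 element (GTTCAAATCCCAGC, in 9) and the major satellite repeat of mouse centromeres (AAATTTTCCACCTT, in 3). They ended within 500 bases of the transcript's end in 6 of the 13, 3 of the 9 and 3 of the 3 genes. Examples show them in the annotated exons, within the 3′ untranslated region for Wdr31, Slc10a1, Foxr1 and Olfr286, and within a coding exon for the satellite.
Wdr31 (chr4:62452725-62452754, minus strand): gtgcaaagTGAGTTCCAGGACAgtgagggc
Slc10a1 (chr12:80955511-80955540, minus strand): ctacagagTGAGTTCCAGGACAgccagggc
Foxr1 (chr9:44434313-44434342, minus strand): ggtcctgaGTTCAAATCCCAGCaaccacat
Olfr286 (chr15:98224435-98224464, minus strand): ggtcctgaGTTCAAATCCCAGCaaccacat
Gm10800 (chr2:98666963-98666992, minus strand): acatttctAAATTTTCCACCTTtttcagtt

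Some of the windows shown differ around the searched letters, and no reads were examined here. A read that falls wholly in a stretch common to several genes can match all of them. How the authors' counting placed such reads is not given in the sources used here, so the counts of genes that share sequence are uncertain, and the part this has in any difference below was not tested.

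Depth followed the strain label. Library totals were 4.21 to 4.7 M counts in NGS vehicle, 2.85 to 4.04 in NGS ACSS2i, 17.6 to 19.2 in C57BI6 vehicle and 18.4 to 20.3 in C57BI6 ACSS2i. A level of 3 CPM would give 39.7 counts over the NGS vehicle libraries and 31.1 over the NGS ACSS2i libraries, so genes at that level were within reach of the shallower libraries. Where all libraries of a group are at 0, the upper limit is 3 counts over the group, or 0.226 CPM in NGS vehicle and 0.289 CPM in NGS ACSS2i, for counting error only. The strain, the depth and the set of libraries coincide, so their parts in a strain difference cannot be told apart. In bulk tissue, fewer cells of a type and less RNA per cell cannot be told apart either. Krt8, a keratin of glandular epithelium, was at 187 to 380 CPM in the 14 libraries, while Epcam, a general epithelial marker, was at 4.04 CPM or less. The T-cell marker Cd3e and the NK-cell marker Ncr1 had no count in any of the 6 NGS libraries. Their means in C57BI6 vehicle were also low, at 0.767 CPM for Cd3e and 0.28 CPM for Ncr1, the latter near the limit of 0.226 CPM. Other markers were counted in NGS: Eomes averaged 1.16 CPM in each vehicle group, and Cd8a was at 0.496 CPM in NGS ACSS2i 3 but in no other NGS library. The T-cell list summed to 772 to 883 CPM in NGS vehicle and 794 to 942 CPM in C57BI6 vehicle. These sums came from 55 to 64 genes with a count in NGS vehicle and 89 to 94 in the deeper C57BI6 vehicle libraries. Similar sums thus do not show a similar T-cell content.

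In the vehicle libraries that chose them, the 79 genes together made up 902 to 1231 CPM in C57BI6 and 3.83 to 6.45 CPM in NGS. Of the 79, 43 had no count in any NGS vehicle library. The genes just inside the C57BI6 limit were Olfr635 (mean 3.02 CPM), Ugt1a9 (3.12) and 4932411N23Rik (3.2), and those just outside were Retnlg (2.93), Fcer2a (2.94) and A430078G23Rik (2.95). At the NGS limit, S100a7a and Cyp11a1 (both 0.29 CPM) and Olfr90 (0.298) were inside, and Hvcn1 (0.301) and Pla2g2d (0.309) were outside. The genes therefore form one end of a continuous range, and there is no gap at either limit.

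**Figure D1:**
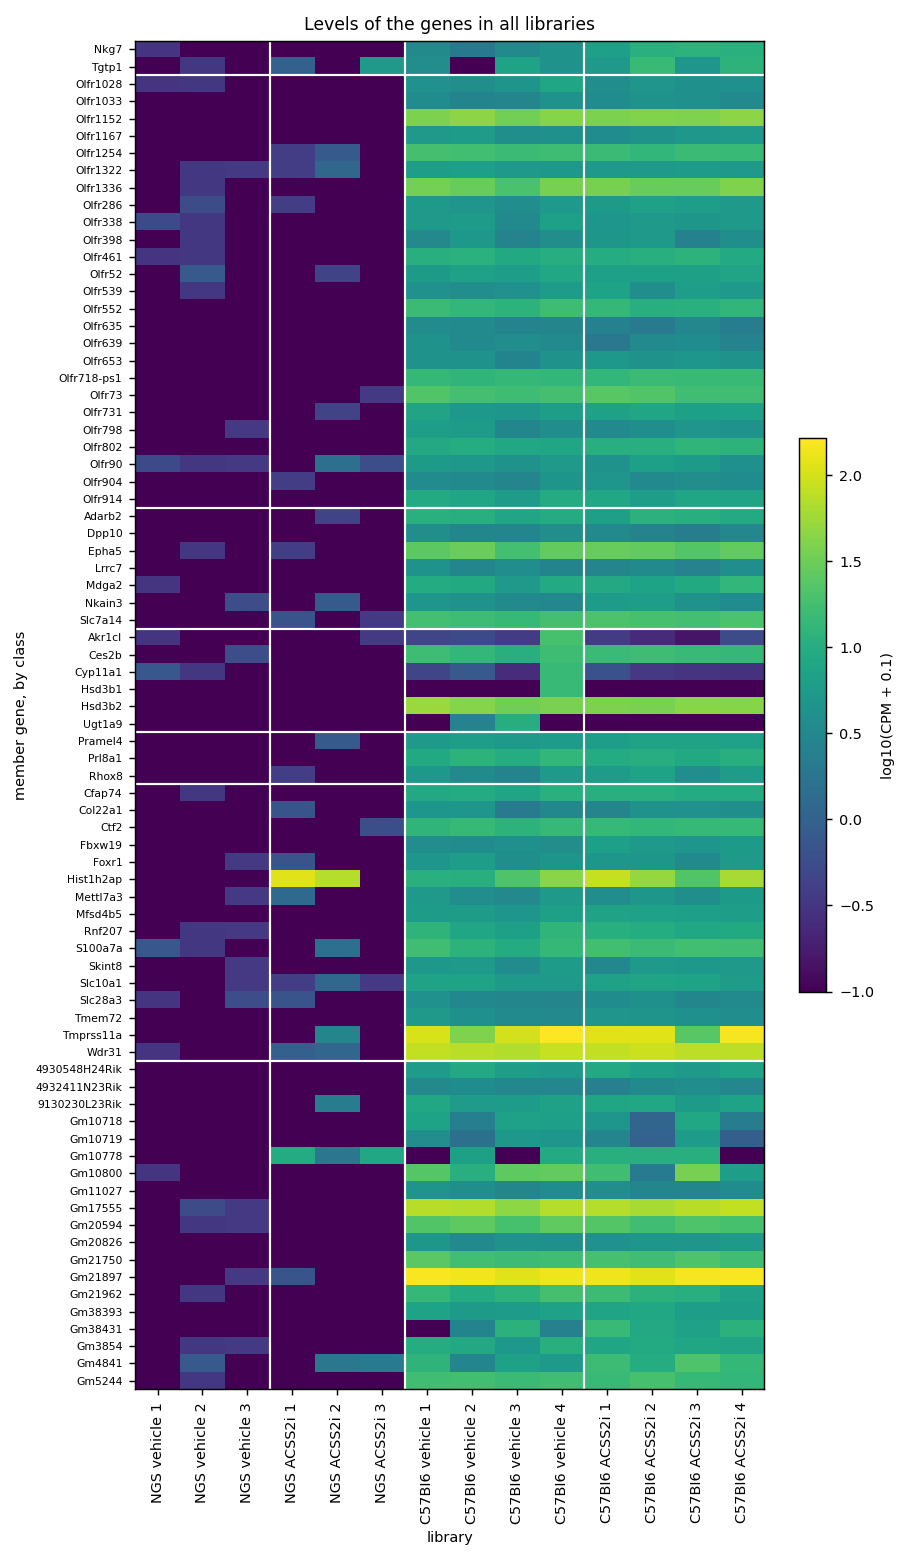
Level of 78 of the 79 genes (rows, by class) in each of the 14 libraries (columns, white lines between groups) as log10(CPM + 0.1). The 8 C57BI6 libraries are similar in most rows and the 6 NGS libraries are dark, while Hist1h2ap, Gm10778 and the steroid genes break the pattern.

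The same levels were then read in the 7 ACSS2i libraries. The 79 genes summed to 1028 to 1175 CPM in C57BI6 ACSS2i and 17.3 to 135 CPM in NGS ACSS2i. A single histone gene, Hist1h2ap, gave 615 of the 795 counts in NGS ACSS2i, and without it the sum was 17.2 to 17.6 CPM. Of the 79 genes, 49 had no count in NGS ACSS2i and 29 had none in any of the 6 NGS libraries. Both limits were met again by 58 of the 79 genes in the ACSS2i libraries, where 0.927% of the protein-coding genes at 3 CPM or more in C57BI6 were at 0.3 CPM or less in NGS. In 73 of the 79 genes all 4 C57BI6 ACSS2i libraries lay above all 3 NGS ACSS2i libraries, against 22.3% of all genes tested.

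C57BI6 was compared with NGS in the ACSS2i libraries alone with the edgeR quasi-likelihood test, adjusted by Benjamini-Hochberg over 16141 genes. Of the 79 genes 72 were higher in C57BI6 and 0 were lower at an adjusted p under 0.05, against 21.1% of all tested genes higher and 16.1% lower. By unadjusted p under 0.05, 73 were higher and 0 lower, and the DESeq2 test also called 72. A further 4 (Akr1cl, Hsd3b1, Cyp11a1 and Ugt1a9) did not pass the filter on low counts. Most of the 75 that passed did so through the C57BI6 libraries alone, so that they had to differ, and the count is a description of the repeat in these libraries. The same limit holds for the adjusted p-values of most single genes given below for this comparison. The 3 tested genes that missed the threshold were Tgtp1, Gm10778 and Hist1h2ap.

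**Figure D2:**
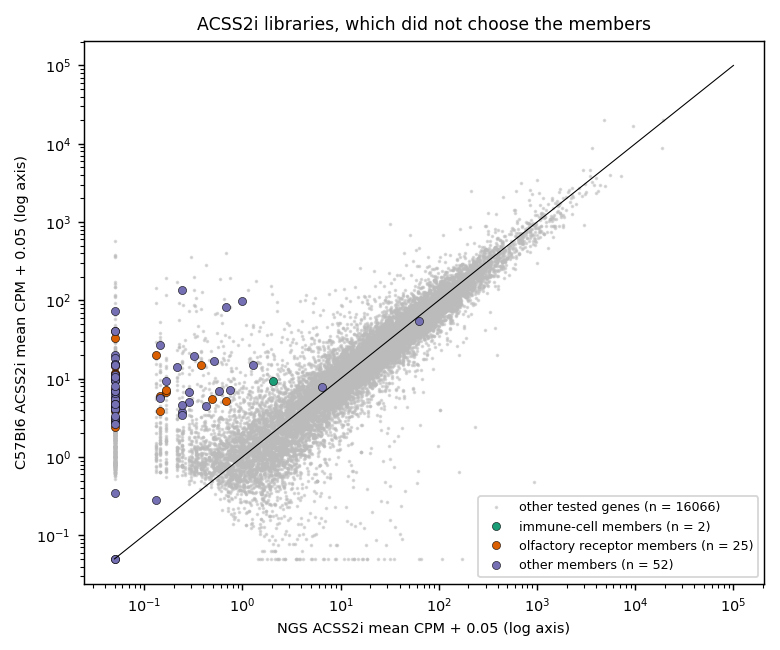
Mean CPM in C57BI6 ACSS2i (vertical, log axis) against NGS ACSS2i (horizontal, log axis), each with 0.05 added, for 16066 other tested genes (grey) and the 79 genes (coloured), with the line of equality. Of the coloured points 49 sit at the left edge, where no NGS ACSS2i library had a count, and Hist1h2ap and Gm10778 lie near the line.

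The 25 olfactory receptor genes were the largest class. QuantSeq reads transcript ends, so CPM was not divided by length, and an order of genes by CPM is one of counts. Olfr1152 (ENSMUSG00000045225, chr2:87866492-87874156) had the highest CPM of the class. Its levels were 38.3, 44.8, 33.8 and 43.0 CPM in C57BI6 vehicle, 38.3, 39.8, 38.4 and 45.6 CPM in C57BI6 ACSS2i, and 0 in all 6 NGS libraries. The 8 C57BI6 libraries thus stayed within a narrow band, with a coefficient of variation of 9.86%. Against the floor of 3 counts in NGS ACSS2i, Olfr1152 was at least 140-fold higher in C57BI6 ACSS2i (edgeR adjusted p = 1.98e-06). With no NGS count, it could pass the filter on low counts only through C57BI6, so this p-value is a description.

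Olfr1336 (ENSMUSG00000048620, chr7:6456168-6466817) was next by CPM. It carries the second shared sequence in its 3′ untranslated region, 2647 bases from the transcript's end. It had 34.9, 29.5, 19.6 and 35.2 CPM in C57BI6 vehicle and 35.4, 28.8, 29.2 and 38.8 CPM in C57BI6 ACSS2i, and its only NGS signal was 0.23 CPM in NGS vehicle 2. Every C57BI6 library lay far above every NGS library. The ratio in the ACSS2i libraries was at least 114-fold (edgeR adjusted p = 7.7e-06).

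Olfr73 (ENSMUSG00000075140) ran from 16.1 to 23.7 CPM over the 8 C57BI6 libraries, and Olfr1254 from 13.4 to 18.2 CPM. Olfr552, shown above with a LINE-1 stretch, ran from 10.1 to 16.2 CPM and had no count in any NGS library. Olfr718-ps1, which the annotation calls protein-coding although its symbol marks a pseudogene, was among the steadiest at 12.4 to 15.2 CPM, a coefficient of variation of 6.7%. Each of these receptors thus kept to a narrow range over vehicle and ACSS2i libraries.

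All 25 olfactory receptor genes were called higher in C57BI6 in the ACSS2i libraries, against 21.1% of all tested genes. With the limit of the filter on low counts given above, this and the class counts below are descriptions. Olfr90 had the smallest difference of the class, with 4.4, 6.49, 5.56 and 4.04 CPM in C57BI6 ACSS2i and 0, 1.41 and 0.496 CPM in NGS ACSS2i. Its groups did not overlap, at a ratio of 8.87 (95% counting interval 4.04 to 24.3) and a log2 difference of 3.21 ± 0.62 (SE, edgeR adjusted p = 0.00386). Of the 25, 8 lay on chromosome 2 and 6 on chromosome 7, and the rest on 9 other chromosomes.

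Olfactory receptor genes outside the chosen set also had a higher sum in C57BI6. These 1109 genes summed to 196 to 241 CPM in C57BI6 vehicle and 226 to 245 in C57BI6 ACSS2i. In NGS vehicle they summed to 42.3 to 43.1 CPM, and in NGS ACSS2i to 29.5 to 34.9. The numbers that follow are for the whole family and include the 25. The whole family of 1134 protein-coding Olfr genes summed to 389 to 481 CPM in C57BI6 vehicle, 468 to 478 in C57BI6 ACSS2i, 43.0 to 46.1 in NGS vehicle and 33.4 to 35.7 in NGS ACSS2i. A mean of 3 CPM or more was reached by 34 of them in C57BI6 vehicle and 33 in C57BI6 ACSS2i, and by 3 in each NGS group. A count in any library of the group was found for 374 and 376 of the genes in C57BI6 and for 59 and 44 in NGS, whose libraries are shallower. Of 97 Olfr genes tested in the ACSS2i libraries, the 25 included, 86 were higher in C57BI6 and 0 lower (edgeR), against 21.1% and 16.1% of all tested genes. With 3 Olfr genes at 3 CPM or more in NGS ACSS2i and 33 in C57BI6 ACSS2i, most could pass the filter on low counts only through the C57BI6 libraries, so this count too is a description. The other 1109 Olfr genes kept a sum of 29.5 to 43.1 CPM in the NGS libraries, unlike the 25.

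**Figure D3:**
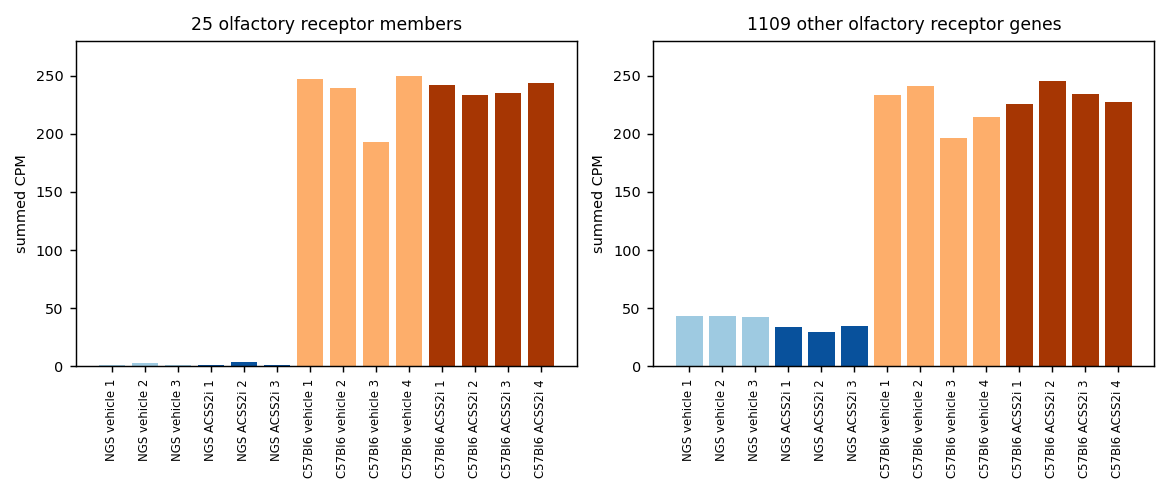
Summed CPM per library of the 25 olfactory receptor genes of the set (left) and of the 1109 others (right), coloured by group. The 25 are at 193 to 250 CPM in C57BI6 and at 3.86 CPM or less in NGS. The others are at 196 to 245 CPM in C57BI6 and 29.5 to 43.1 CPM in NGS. The level of the 25 in the vehicle libraries was set by the choice.

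The 8 nervous-system genes were led by Epha5 (ENSMUSG00000029245, chr5:84054761-84417382), an ephrin receptor that guides axons. Its levels were 25.5, 29.6, 17.9 and 27.3 CPM in C57BI6 vehicle, 29.0, 27.2, 22.5 and 27.7 CPM in C57BI6 ACSS2i, 0.23 CPM in NGS vehicle 2 and 0.287 CPM in NGS ACSS2i 1, with 0 in the other 4 NGS libraries. The ratio in the ACSS2i libraries was 276 (95% counting interval 49.5 to 10914), and the log2 difference 8.07 ± 0.43 (SE, edgeR adjusted p = 1.98e-06). Epha5 had no stretch of 30 bases shared with 10 or more other genes.

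Slc7a14, a member of the cationic amino acid transporter family found in neurons and retina, was at 14.2 to 20.7 CPM over the C57BI6 libraries and at 0.574 CPM or less in NGS. Adarb2, a brain relative of the RNA-editing adenosine deaminases, was at 6.58 to 11.6 CPM, and Mdga2, an adhesion protein of synapses, at 5.21 to 13.2 CPM. The synaptic scaffold protein Lrrc7 (2.59 to 4.28 CPM) and Dpp10, a partner of potassium channels (2.16 to 3.74 CPM), had no count in any NGS library. Nkain3, which binds the sodium pump, completed the class at 3.06 to 6.24 CPM. All 8 were called higher in C57BI6 in the ACSS2i libraries, against 21.1% of all tested genes.

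The list of 36 nerve and Schwann-cell markers, which holds none of the 8, summed to 138 to 169 CPM in the C57BI6 libraries and 212 to 301 CPM in the NGS libraries. In the ACSS2i libraries 2 of its 17 tested genes were higher in C57BI6 and 4 lower, against 21.1% and 16.1% of all tested genes, so the counts do not set the list apart. Its median log2 difference was -0.28 against 0.06 over all genes.

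The 6 genes of steroid and drug metabolism fell into different patterns. Hsd3b2 (ENSMUSG00000063730, chr3:98709255-98724543), of the 3-beta-hydroxysteroid dehydrogenase family, was at 52.9, 42.2, 32.3 and 36.9 CPM in C57BI6 vehicle and 37.9, 36.8, 43.7 and 42.1 CPM in C57BI6 ACSS2i. It had no count in any NGS library, and was at least 139-fold higher in C57BI6 ACSS2i (edgeR adjusted p = 2.32e-06). Ces2b, a carboxylesterase of liver and gut, was similarly even at 10.1 to 16.5 CPM, with a single NGS library at 0.475 CPM.

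Akr1cl, Cyp11a1 and Hsd3b1 owed their place to 1 library. Cyp11a1, which starts steroid synthesis from cholesterol, was at 14.8 CPM in C57BI6 vehicle 4 and at 0.689 CPM or less in the other 7 C57BI6 libraries. Hsd3b1 was at 14.7 CPM there and had no count in the other 13 libraries, although it is the neighbour and close relative of Hsd3b2, which all 8 held. Akr1cl, an aldo-keto reductase, was at 18.6 CPM there and at 0.443 CPM or less elsewhere in C57BI6.

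Other genes of steroid-producing cells were looked up after this was seen. Cyp17a1 (3.8 CPM) and Inha (3.97 CPM) were also present in C57BI6 vehicle 4 and at 0.147 CPM or less in the other C57BI6 libraries. In NGS, Cyp17a1 was at 1.28 CPM in vehicle 1, 0.287 CPM in ACSS2i 1 and 0.351 CPM in ACSS2i 2, and Inha was at 0.238 CPM or less, so both also had counts outside C57BI6 vehicle 4. Star was at 1.13 to 3.97 CPM in all 14 libraries, and Lhcgr and Cyp21a1 had no count in any. Leaving out C57BI6 vehicle 4 gave 77 genes by the same limits. Ugt1a9, a glucuronosyltransferase whose exons are shared with the other Ugt1a genes, rested on C57BI6 vehicle 2 (2.54 CPM) and 3 (9.95 CPM) and had no count in the other 12 libraries.

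The placenta and germ-line genes were Prl8a1, a prolactin relative of the placenta (8.86 to 13.3 CPM in C57BI6, 0 in NGS), Pramel4 of the germ-line PRAME family (5.29 to 7.08 CPM) and the homeobox gene Rhox8 (2.6 to 7.18 CPM). All 3 were called higher in C57BI6 in the ACSS2i libraries, against 21.1% of all tested genes. In none did the ACSS2i libraries of the 2 strains overlap. Of all tested genes, 22.3% had every C57BI6 ACSS2i library above every NGS ACSS2i library.

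Among the 16 other named genes, Wdr31 (ENSMUSG00000028391, chr4:62448653-62470896), a WD-repeat protein whose 3′ end holds the B1 stretch shown above, was high and even. It was at 82.2, 76.2, 69.0 and 87.1 CPM in C57BI6 vehicle and 83.2, 92.3, 77.0 and 76.9 CPM in C57BI6 ACSS2i. In NGS it was at 0.213, 0 and 0 CPM in vehicle and 0.86, 1.05 and 0 CPM in ACSS2i, far below. The log2 difference in the ACSS2i libraries was 7.23 ± 0.38 (SE, edgeR adjusted p = 1.92e-06).

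Tmprss11a, a membrane serine protease of epithelia, had a similar mean but was uneven. It was at 103, 39.1, 99.6 and 163 CPM in C57BI6 vehicle and 116, 112, 23.6 and 146 CPM in C57BI6 ACSS2i, with 2.81 CPM in NGS ACSS2i 2 and 0 in the other 5 NGS libraries. The strains did not overlap, at a log2 difference of 7.07 ± 0.99 in the ACSS2i libraries (SE, edgeR adjusted p = 0.000784). By limma voom with sample weights its adjusted p was 0.0976.

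The liver bile-acid transporter Slc10a1 was at 5.16 to 7.37 CPM in C57BI6 and 0 to 1.05 CPM in NGS. The cytokine Ctf2 (11.9 to 14.3 CPM) had a coefficient of variation of 6.67% over the 8 C57BI6 libraries. S100a7a, a small calcium-binding protein of skin, was at 9.43 to 17.4 CPM. Cfap74 of cilia, Rnf207 and Mfsd4b5 were at 4.84 to 12.5 CPM, and Mettl7a3, Tmem72, Skint8, the F-box gene Fbxw19, the forkhead gene Foxr1, the collagen Col22a1 and the nucleoside transporter Slc28a3 were at 2.08 to 6.47 CPM. Of the 16, 15 were called higher in C57BI6 in the ACSS2i libraries, all but Hist1h2ap, against 21.1% of all tested genes.

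The 19 predicted genes and clones held the gene with the highest mean CPM of the set, Gm21897 (ENSMUSG00000094472, chr16:15317458-15318957). It was at 153, 138, 114 and 137 CPM in C57BI6 vehicle and 134, 116, 146 and 152 CPM in C57BI6 ACSS2i, and at 0.574 CPM or less in each NGS library. Gm17555, which carries the same 14 letters, was at 45.8 to 83.0 CPM and Gm21750 at 15.8 to 24.3 CPM. The groups were far apart for each of these. Of the 19, 18 were called higher in C57BI6 in the ACSS2i libraries, against 21.1% of all tested genes.

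The satellite-bearing genes Gm10800, Gm10718 and Gm10719 were uneven in C57BI6. Gm10800 was at 23.2, 10.2, 26.3 and 27.4 CPM in vehicle and 16.6, 2.02, 36.1 and 5.96 CPM in ACSS2i. Gm10718 was at 2.33 to 7.11 CPM in vehicle and 4.78, 1.03, 8.43 and 2.17 CPM in ACSS2i. All 3 genes had their highest level of the ACSS2i libraries in C57BI6 ACSS2i 3. They share sequence, so they are not independent of each other.

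**Figure D4:**
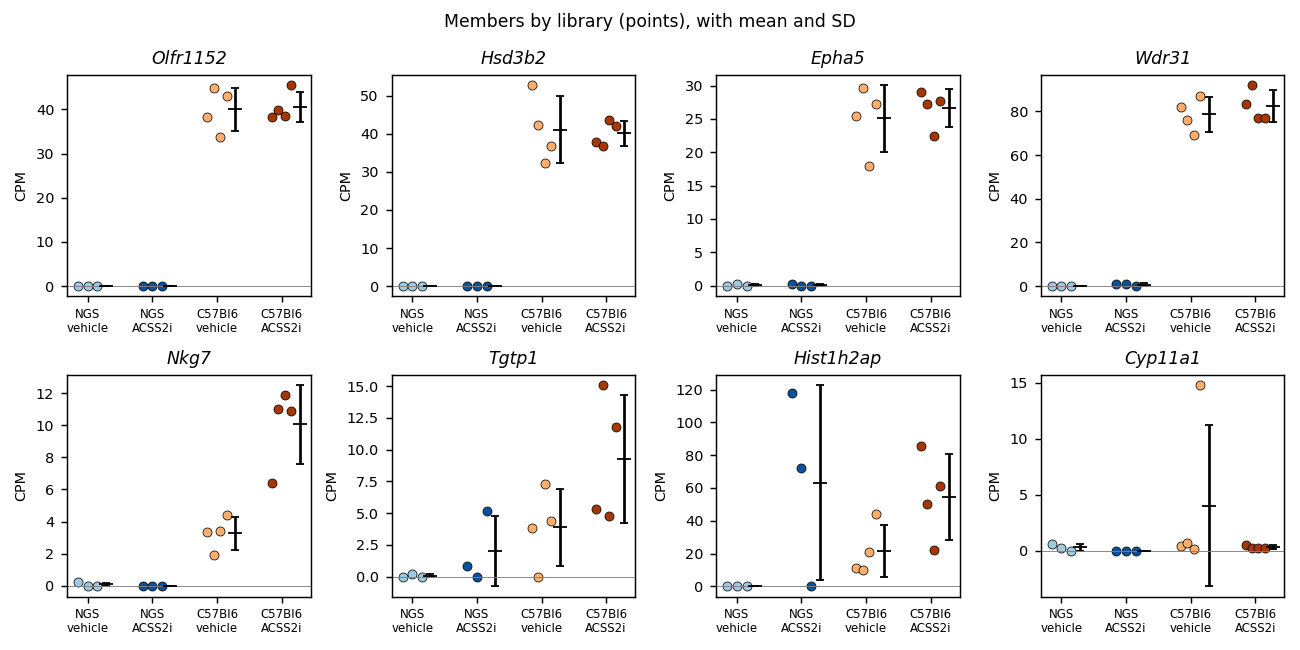
CPM in each library (points, by group) with the mean and SD beside them for 8 genes of the set. Olfr1152, Hsd3b2, Epha5 and Wdr31 are near 0 in NGS and even in C57BI6, Nkg7 and Tgtp1 vary with treatment or library, Hist1h2ap is high in 2 NGS ACSS2i libraries, and Cyp11a1 is high in 1 library.

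The 2 immune-cell genes behaved less evenly. Nkg7 (ENSMUSG00000004612, chr7:43437073-43438249), a protein of the cytotoxic granules of NK and T cells, was at 3.37, 1.91, 3.39 and 4.42 CPM in C57BI6 vehicle and 6.42, 11.0, 11.9 and 10.9 CPM in C57BI6 ACSS2i. It had 0.213 CPM in NGS vehicle 1 and no count in the other 5 NGS libraries. It was at least 34.9-fold higher in C57BI6 than in NGS in the ACSS2i libraries (edgeR adjusted p = 0.000206).

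Tgtp1 (ENSMUSG00000078922), an interferon-induced GTPase with a near-identical copy, Tgtp2, so that its counts are uncertain, was at 3.8, 0, 7.29 and 4.42 CPM in C57BI6 vehicle. It was at 5.33, 15.1, 4.81 and 11.8 CPM in C57BI6 ACSS2i, and at 0.86, 0 and 5.2 CPM in NGS ACSS2i, of which library 3 lay within the C57BI6 range. The log2 difference was 2.17 ± 0.78 (SE, edgeR adjusted p = 0.0545), and 4.39 without that NGS library (adjusted p = 0.0156).

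Nkg7 belongs to the list of NK and cytotoxic genes. In the ACSS2i libraries 21 of its 36 tested genes were higher in C57BI6 and 1 lower, against 21.1% and 16.1% of all tested genes, with a median log2 difference of 4.74 against 0.06. Its summed level was 279 to 478 CPM in C57BI6 ACSS2i and 190 to 230 CPM in NGS ACSS2i, from 41 to 42 and 14 to 17 genes with a count. Most of the 36, Nkg7 included, could thus pass the filter on low counts only through the C57BI6 libraries. The count and the median are therefore a description. In the vehicle libraries the sums overlapped, at 166 to 186 CPM in C57BI6 and 137 to 204 CPM in NGS, although Nkg7 itself was chosen for its difference there. The vehicle sums came from 40 to 42 genes with a count in C57BI6 and 18 in NGS. On the T-cell list 52 of 87 tested genes were higher in C57BI6 ACSS2i and 4 lower, with a median of 1.79. The same limit holds for part of these, since 94 to 97 genes of the list had a count in C57BI6 ACSS2i and 58 to 63 in NGS ACSS2i. In the antigen-receptor signalling list 12 of 34 tested genes were higher and 6 lower, with a median of 0.36. The part of the cell makeup in the Nkg7 difference was not tested.

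ACSS2i was compared with vehicle in C57BI6 in a model of all 4 groups (edgeR, 17294 genes). Its vehicle libraries also chose the genes, so the comparison is not independent of the choice. None of the 79 genes was called, against 0.26% of all tested genes higher and 0.052% lower. By unadjusted p under 0.05, 2 were higher (Nkg7 and Gm4841) and 1 lower (Cyp11a1), and the DESeq2 test called 1, Nkg7. The set's sum was 1051 ± 149 CPM in vehicle and 1117 ± 71.4 CPM in ACSS2i (SD, n = 4 each), and all 25 olfactory receptor genes missed the threshold, with Olfr1152 at a log2 difference of -0.04 ± 0.12 (SE).

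Nkg7 was the gene closest to a call. Its mean was 3.27 ± 1.03 CPM in C57BI6 vehicle and 10.1 ± 2.47 CPM in C57BI6 ACSS2i (SD, n = 4 each), and every ACSS2i library lay above every vehicle library. The log2 difference was 1.56 ± 0.30 (SE, edgeR adjusted p = 0.0526), just outside the threshold. DESeq2 gave an adjusted p of 0.000232, limma voom 0.00377 and edgeR on the C57BI6 libraries alone 0.0186. On its list of NK and cytotoxic genes 6 of 37 tested genes were called higher and 0 lower, with a median of 1.49 against -0.01 over all genes. The list's sum was 166 to 186 CPM in C57BI6 vehicle and 279 to 478 CPM in C57BI6 ACSS2i.

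In NGS, whose vehicle libraries also chose the genes, 1 of the 79 was called higher with ACSS2i and 0 lower (edgeR), against 1.35% and 1.41% of all tested genes. It was Hist1h2ap (ENSMUSG00000094777, chr13:21833026-21833507), a core histone gene of a family with near-identical copies, so that its counts are uncertain. Most messages of this family lack a poly(A) tail. It had no count in NGS vehicle, and 118, 72.0 and 0 CPM in NGS ACSS2i, so the 3 treated libraries disagreed. The adjusted p was 0.0356, and 0.735 with limma voom. It was also uneven in C57BI6, at 11.0, 10.2, 20.9 and 43.9 CPM in vehicle and 85.3, 50.3, 22.1 and 61.3 CPM in ACSS2i.

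That call was lost without any 1 of the NGS vehicle libraries, NGS ACSS2i 2, C57BI6 vehicle 3, or C57BI6 ACSS2i 2 or 4 (adjusted p 0.0507 to 0.0852). The clone 9130230L23Rik, with 6 counts in NGS ACSS2i 2 alone, was called besides by DESeq2 (adjusted p = 0.0424). Gm10778 was not called at 9.46, 1.76 and 8.18 CPM in NGS ACSS2i and 0 in NGS vehicle, and it was either absent or present in C57BI6 too, with 0 in 3 of the 8 libraries and 6.67 to 10.6 CPM in the other 5.

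Most of the 79 genes varied little between the 8 C57BI6 libraries. The coefficient of variation was 20% or less for 51 genes and 50% or more for 13. Over the 4 C57BI6 ACSS2i libraries, the 71 genes at 3 CPM or more had a median coefficient of variation of 14.3%, the 23 olfactory receptor genes among them 12.3%, and 9546 other protein-coding genes from 3 CPM up to the highest mean of the set 9.53%. The others had higher levels, with a median of 23.7 CPM against 7.33, and so carry less counting error.

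The share of transcripts that hold sequence common to many genes was then measured without reference to level. A 30-base window was counted as shared when it occurred on the same strand in transcripts of 10 or more other genes. The longest transcript held such a window in 66 of the 79 genes (83.5%), in 25 of the 25 olfactory receptor genes and in 41 of the other 54. The same was found in 46.6% of the other Olfr genes, 28.9% of 10879 other protein-coding genes at 3 CPM or more in C57BI6 ACSS2i, and 23.9% of the 113 genes of the reverse choice. Within the last 500 bases, where a 3′-end library reads, a shared window was present in 41.8% of the 79 genes and 8.95% of the other protein-coding genes.

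A longer transcript has more room for a shared window. The median length was 3474 bases in the 79 genes and 3505 in the other expressed protein-coding genes, but 4786 in the 25 olfactory receptor genes against 2921 in the other Olfr genes, 2780 in the other 54 genes and 1866 in the reverse choice. The part of length in the differences between those sets was not tested. The genes that are not protein-coding but met both limits, 235 of them with an annotated transcript, held a shared window in 91.1% of cases, against 57.4% of 921 other non-coding genes at 3 CPM or more, with median lengths of 1770 and 2044 bases. Hsd3b2 had 46.1% of the windows in its last 500 bases shared, and Gm21897 80.5%. In the 13 genes without a shared window were both immune-cell genes, Nkg7 and Tgtp1, and also Epha5, Lrrc7, Hsd3b1, Akr1cl, Ugt1a9, Slc10a1, Mfsd4b5, 4932411N23Rik, Gm5244, Gm20594 and Gm38431. The 3′ stretch of Slc10a1 and that of Akr1cl lie in shorter transcripts of these genes.

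**Figure D5:**
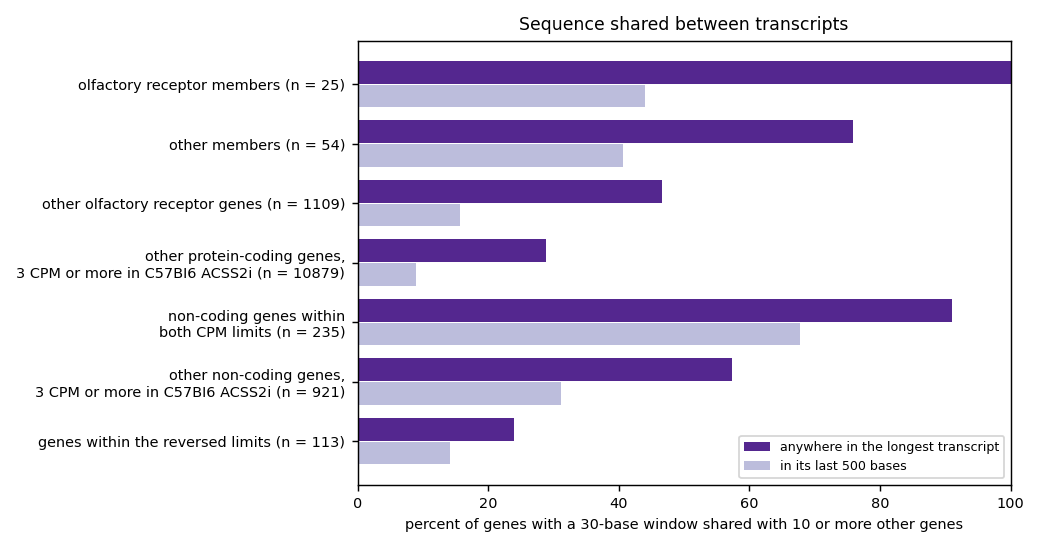
Percent of genes (horizontal bars from 0) whose longest transcript holds a 30-base window found in 10 or more other genes, anywhere (dark) or in its last 500 bases (light), by gene set. The 25 olfactory receptor genes are at 100% and the other 54 genes of the set at 75.9%, against 28.9% of the other protein-coding genes.

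The letters shown above were compared across sets on both strands. On the transcribed strand CCAGTACAGGGGAA was in 17.7% of the 79 genes, 2.07% of the other Olfr genes, 0.285% of the other expressed protein-coding genes and 0.336% of all other protein-coding genes. On the opposite strand it was in 8.86% of the 79 and 0.349% of the other expressed genes. GGCAGCCACATTCA was in 7.59% of the 79, Lrrc7 included, and 0.0276% of the other expressed genes. The B1 letters were in 16.5% and 6.76%, the B2 letters in 11.4% and 2.89%, and the satellite letters in 3.8% and 0% (0 of 10879). B1 and B2 letters are thus common in other genes as well. None of the searched sequences contains another.

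Genes outside the set were also grouped by shared sequence, as a description. Of 13223 other protein-coding genes tested in the ACSS2i libraries (edgeR), 9339 had no shared window, and 16.8% of these were higher in C57BI6 and 17.3% lower. In the 2257 genes with a shared window but no more than 1% of windows shared, 415 (18.4%) were higher and 406 lower. Where over 1% and up to 5% of windows were shared, 30.3% of 1398 genes were higher and 11.2% lower. Where over 5% were shared, 32.8% of 229 genes were higher and 6.99% lower, with a median log2 difference of 0.39 against 0.03 over all of them. The 13223 genes include other Olfr genes. Some of them, such as Cd3e, could pass the filter on low counts only through the C57BI6 libraries. The groups were not matched for level or transcript length. The part that shared sequence has in the strain difference of the 79 genes was not tested.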

How the data were processed

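Bulk tumour RNA of 14 libraries was counted per gene. The authors deposited whole-number counts, and the submitters' processing notes name RSEM 1.2.3, DESeq2 and build mm10 without saying what each was used for. Aligner, annotation release and filters are not given. The genes, gene lists and classes were chosen with earlier results of these data known. Symbols, types and positions came from GENCODE M21, which matched 51596 genes and left 193 without a match.

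CPM was the count over the library total. Genes were filtered with filterByExpr, scaled by TMM and tested with edgeR 4.0.16 (quasi-likelihood, two-sided, Benjamini-Hochberg over all tested genes, threshold 0.05): C57BI6 against NGS in the 7 ACSS2i libraries alone, and ACSS2i against vehicle in 1 model of 4 groups. The test was tried on simulated data. Ratios of summed counts have exact 95% intervals; intervals and floors (3 counts) cover counting error only, since no molecular identifiers are described. DESeq2 1.42.0, limma 3.58.1 voom, other scalings and filters, and libraries left out were alternatives.

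Shared windows were 30-base stretches of a gene's longest transcript found on the same strand in 10 or more other genes. The 5 short sequences were 14-mers with, in turn, the largest excess of members over other expressed protein-coding genes, searched in all transcripts of a gene. Members named in the text were the immune-cell ones, those with the smallest p or highest level in a comparison, the most and least even, those nearest the limits, and relatives or neighbours; genes of each class named besides, and steroid genes outside the set, were chosen after their values were seen. A member of the nervous-system class and some values of other genes are not reported here.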

Additional observations from a re-analysis of the deposited data

Results flagged for a closer look

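In 13 of 158 sets of 4 libraries looked at (79 genes in each of 2 C57BI6 groups, 8.23%), 1 library stood apart from the other 3 by more than Dixon's 95% limit. That limit is made for independent normal values, of which about 1 in 20 sets would pass it. These sets share libraries and hold low counts, and the vehicle values also chose the genes. The share is therefore a description and cannot be set against chance. The 3 steroid genes of C57BI6 vehicle 4 stood furthest apart. Akr1cl was at 18.6 CPM there against 0.26 to 0.424 CPM in the other 3, Cyp11a1 at 14.8 against 0.156 to 0.689, and Hsd3b1 at 14.7 against 0. The 3 moved together in that library, and so did Cyp17a1 and Inha.

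Low values in C57BI6 vehicle 3 were those of Mdga2 (5.21 CPM against 8.79 to 9.46), Olfr653 (2.71 against 4.24 to 4.42) and Gm5244 (15.3 against 16.8 to 17.1). In C57BI6 vehicle 2, Olfr718-ps1 (12.4 against 13.4 to 13.6) and Gm10718 (2.33 against 6.4 to 7.11) were low. Among the ACSS2i libraries of C57BI6, Olfr731 was high in library 2 (7.96 against 6.64 to 6.85) and Cyp11a1 in library 1 (0.544 against 0.197 to 0.246). Foxr1 was low in library 3 (3.29 against 4.87 to 5.17), Skint8 in library 1 (3.04 against 5.08 to 5.27) and Gm10778 in library 4 (0 against 10.1 to 10.6).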

How the results depend on the processing

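The number of genes within the limits was 113 with 2 CPM and 45 with 5 CPM as the C57BI6 limit and 48 with both limits required in every vehicle library, and 77 to 91 with 1 vehicle library left out; with TMM scaling it was 91. Called higher in C57BI6 in the ACSS2i libraries were 70 to 72 with 1 library left out, 68 by limma voom, 73 without a filter, and 72 with the replicate number as a block (replicate block). Whether equal numbers mark paired samples is not given by the labels, and so few pairs cannot settle it. Deviations from the group means of samples with equal numbers correlated at -0.137 to 0.155 in C57BI6, -0.0022 to 0.0946 in NGS and -0.0919 to 0.0835 between the strains. With different numbers the ranges were -0.268 to 0.349, -0.124 to 0.0812 and -0.139 to 0.131. Not every sample correlated best with its own number. For ACSS2i in C57BI6 the call count was 1 (Nkg7) in place of 0 with column totals only, by DESeq2, by limma voom, without a filter and in C57BI6 libraries only, and 0 to 1 with 1 library left out, 1 without NGS ACSS2i 1 (adjusted p 0.0388) or 2 (0.0321); for ACSS2i in NGS it was 2 by DESeq2, 0 by limma voom, and 0 to 1 with 1 library left out. With the block these counts were 0 and 1. With NGS libraries only, no gene of the set passed the filter. No named gene reversed its direction where it was called. A shared window in 5 or 20 other genes, chosen after seeing the data, gave 89.9% and 78.5% in place of 83.5%. Depth limits the NGS side: most genes there have 0 to 3 counts in a group, so the size of their difference is a lower bound or has a wide interval.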
